A study of Mus musculus with 4 samples.

Results

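The Hippo pathway restrains YAP and TAZ, a pair of related coactivators that have no DNA-binding domain of their own. When the kinases LATS1 and LATS2 phosphorylate YAP and TAZ, the coactivators are kept in the cytoplasm or degraded, and when the pathway is off they enter the nucleus and act through TEAD factors bound to DNA. In the early mouse embryo this switch separates the outer trophectoderm, where TEAD4 and nuclear YAP act, from the inner cell mass, from which embryonic stem (ES) cells are derived.

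The 10 genes described here are a pathway list that was chosen with earlier results of these data known. They were taken by symbol from the deposited gene table, which holds 54146 mouse genes. They are the coactivator genes Yap1 and Wwtr1 (the gene of TAZ), the DNA-binding partners Tead1 and Tead4, the kinase gene Lats2, the scaffold genes Amotl1 and Amotl2, and the target genes Ankrd1, Ctgf and Cyr61. Nascent RNA of mouse ES cells was labelled with 4-thiouridine, purified and sequenced (TT-seq), so that counts report RNA made during the labelling. Cells labelled Supt3 KO were compared with cells labelled Supt3 WT, with 2 libraries each, both kept in LIF and serum. Supt3 encodes a subunit of the transcriptional coactivator complex SAGA. The labels describe neither the mutant allele nor the strain, the number of clones or any feeder cells. Separate cultures are not mentioned either, and p-values therefore measure the spread between these libraries alone, which may be technical.

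KO libraries held 13.1 and 18.4 M counts (M, 1e6) on mouse genes and WT libraries 13.5 and 19.4 M. The spike-in was 4-thiouridine-labelled RNA from fission yeast (S. pombe), which took 3.46 to 4.84 M more counts per library. Levels are given as CPM, counts per 1e6 mouse counts after edgeR's TMM scaling (trimmed mean of M-values). Supt3 stood at 123 and 140 CPM in KO libraries and at 148 and 159 CPM in WT libraries, so its total count does not check the genotype. The pluripotency regulator gene Pou5f1 was well transcribed in all libraries, at 154 and 135 CPM in KO and 139 and 128 CPM in WT. Sox2, another defining marker, had 0 counts in every library, and all of its 2057 bases lie inside Sox2ot, a longer gene of the same strand.

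Of the 10 genes, 9 passed the filter on low counts, and 6 of these rose in KO while none fell in the edgeR quasi-likelihood test (Benjamini-Hochberg adjusted p under 0.05 over all 16789 genes tested). The genes that rose were the targets Ankrd1, Ctgf and Cyr61, the scaffolds Amotl1 and Amotl2, and the coactivator gene Wwtr1. Yap1, Tead1 and Tead4 did not pass the test. Over all tested genes 8.07% were called, 4.05% as higher and 4.02% as lower in KO. Both KO libraries stood above both WT libraries for 7 of the 9 genes and below them for none, against 26.7% and 26.0% of all tested genes. The median log2 fold change of the 9 genes was 0.45, beside 0.01 over all tested genes. DESeq2 and limma voom also called 6 of the 9 genes higher and 0 lower. Over all tested genes DESeq2 called 595 higher and 565 lower, and limma voom 669 and 685. Before adjustment 6 of the 9 had an edgeR p under 0.05, as had 3842 of all 16789 genes tested.

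**Figure D1:**
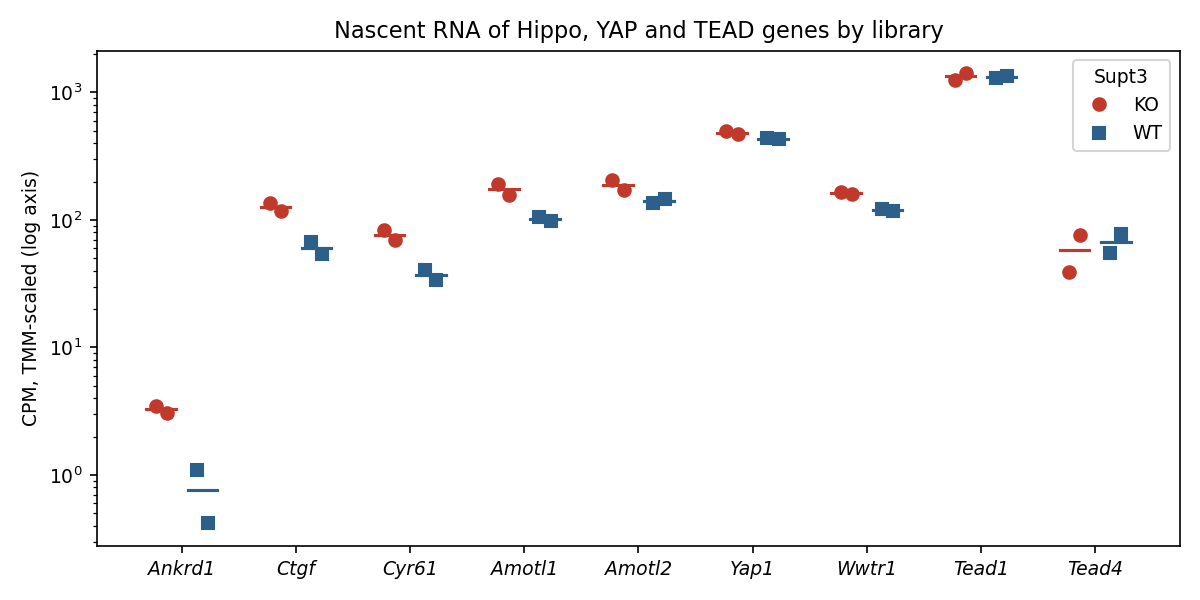
TMM-scaled CPM of 9 genes in each library on a log axis, with KO libraries as circles to the left of WT libraries as squares and a short line at each group mean. The KO circles lie above the WT squares for every gene shown except Tead1 and Tead4, and Lats2 (0 or 1 count per library) is not drawn.

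The target genes showed the largest differences. Ankrd1, which encodes an ankyrin repeat protein of muscle and is a widely used readout of YAP and TAZ, lies at chr19:36111965-36119844 (mm10, minus strand) and had 47 and 55 counts in KO libraries, against 15 and 8 counts in WT libraries. These counts are 3.49 and 3.09 CPM in KO and 1.1 and 0.418 CPM in WT. The groups did not overlap, and the WT libraries lay further apart than the KO libraries. Ankrd1 rose by 2.18 ± 0.41 (SE) on the log2 scale, a 4.54-fold difference (edgeR, adjusted p = 0.0151). At so few counts the size is loosely fixed, and the log2 fold change ranged from 1.57, with WT replicate 2 left out, to 2.94, with WT replicate 1 left out.

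Ctgf and Cyr61, which encode the secreted matricellular proteins CCN2 and CCN1, lie at chr10:24595442-24598683 (plus strand) and chr3:145646976-145649981 (minus strand). They had many more counts than Ankrd1 and rose by almost the same amount as each other. Ctgf stood at 135 and 117 CPM in KO, against 66.6 and 54.5 CPM in WT. Its log2 fold change was 1.06 ± 0.12 (SE; edgeR, adjusted p = 0.00208). Cyr61 stood at 83.8 and 69.0 CPM in KO, against 40.2 and 33.6 CPM in WT, with a log2 fold change of 1.05 ± 0.13 (edgeR, adjusted p = 0.00280). For both genes the lower KO library was still above the higher WT library. The calls of Ankrd1, Ctgf and Cyr61 were kept whichever single library was left out. An overlapping gene of the opposite strand, Gm15270, covers 51.4% of Ctgf and had 158 and 243 counts in KO and 206 and 280 in WT, with a log2 fold change of -0.22 ± 0.15 (edgeR, adjusted p = 0.419). The sources used here do not give the strand setting of the counting.

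Ratios of counts of 2 genes in the same library do not depend on how libraries are scaled. There were 1.62 and 1.70 Ctgf counts per Cyr61 count in KO libraries, and 1.66 and 1.62 in WT libraries, with overlap of the groups, although both levels differed between genotypes. Ctgf counts per Tead1 count were 0.107 and 0.0830 in KO and 0.0512 and 0.0401 in WT. Cyr61 counts per Yap1 count were 0.170 and 0.145 in KO and 0.0921 and 0.0779 in WT. The targets thus stood higher in KO relative to the genes of the factors that act on them, with no overlap of the groups. Ankrd1 counts per Ctgf count were 0.0257 and 0.0263 in KO and 0.0165 and 0.00768 in WT, again with no overlap.

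**Figure D2:**
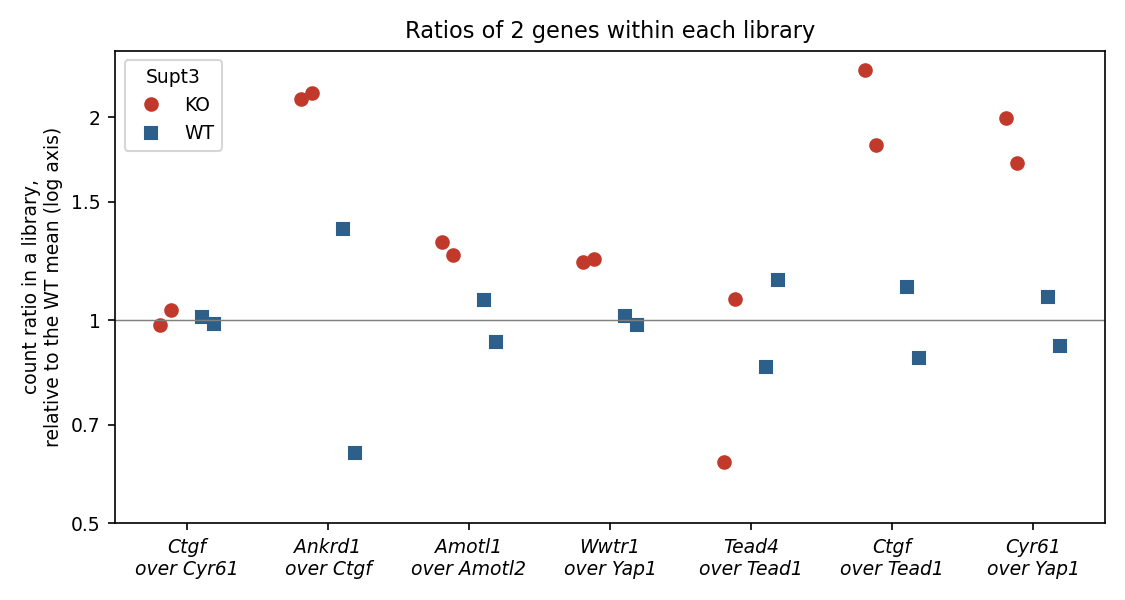
Count ratios of pairs of genes within each library, divided by the mean ratio of the WT libraries, on a log axis (KO circles left of WT squares). The ratio of Ctgf over Cyr61 sits at the same height in all 4 libraries, the KO points of Tead4 over Tead1 overlap with WT, and the other 5 ratios are higher in both KO libraries.

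The promoters of Ankrd1 and Cyr61 carry the letters that TEAD factors are known to bind. The sequences below are the 250 bases before the RefSeq start (build GRCm38.p6), written 5′ to 3′ on the strand of the gene in lower case. They show 3 genes that rose and Yap1, which did not pass the test, and each of them holds the core. Amotl1, which rose and holds none, is not shown. Capitals mark the TEAD core GGAATG or its reverse complement CATTCC.
Ankrd1 (chr19:36119845-36120094, minus strand): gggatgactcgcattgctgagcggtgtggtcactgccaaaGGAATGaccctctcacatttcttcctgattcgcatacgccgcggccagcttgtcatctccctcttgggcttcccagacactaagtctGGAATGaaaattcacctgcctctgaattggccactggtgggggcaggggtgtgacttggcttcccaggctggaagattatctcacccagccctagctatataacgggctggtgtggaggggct
Cyr61 (chr3:145649986-145650235, minus strand): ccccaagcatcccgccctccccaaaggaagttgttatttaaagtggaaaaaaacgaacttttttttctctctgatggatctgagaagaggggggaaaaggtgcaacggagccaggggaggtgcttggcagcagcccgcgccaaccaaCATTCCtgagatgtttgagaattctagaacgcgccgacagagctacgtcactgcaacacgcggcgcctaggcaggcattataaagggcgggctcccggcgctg
Amotl2 (chr9:102717554-102717803, plus strand): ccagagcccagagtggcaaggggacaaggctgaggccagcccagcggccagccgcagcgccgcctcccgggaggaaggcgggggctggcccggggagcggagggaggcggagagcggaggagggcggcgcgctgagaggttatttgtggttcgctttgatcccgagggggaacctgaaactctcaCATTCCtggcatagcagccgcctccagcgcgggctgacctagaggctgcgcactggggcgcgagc
Yap1 (chr9:8004597-8004846, minus strand): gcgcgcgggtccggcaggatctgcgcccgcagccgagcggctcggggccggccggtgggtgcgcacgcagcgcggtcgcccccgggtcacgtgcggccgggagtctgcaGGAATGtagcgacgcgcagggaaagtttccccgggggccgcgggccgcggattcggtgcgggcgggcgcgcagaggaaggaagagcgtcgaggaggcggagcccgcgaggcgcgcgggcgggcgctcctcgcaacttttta

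Ankrd1 had 2 cores, whose first bases lie at -210 and -123 from the start, and Cyr61 had 1 at -103. Amotl2 had 1 core at -65, Yap1 had 1 at -141, and Wwtr1 had 1 at -136. Of the 7 genes with a promoter in the table, 6 held the core in the window of 250 bases before and 50 after the start, Lats2 with its core at position 5 after the start. Amotl1 held none. The windows of Amotl1, Amotl2 and Lats2 lie inside these genes as the deposited table draws them, at a start downstream of the annotated 5′ end. Over 27025 genes of the same table, 16.6% held the core on either strand in a window of this length. With only the 250 bases before the start, 5 of the 7 genes held it, against 14.4% of all genes. The core was thus present both in genes that rose and in Yap1. The CArG box, to which serum response factor binds, was in the window of 0 of the 7 genes and of 1.81% of all genes. Ctgf, Tead1 and Tead4 were not analysed for promoter sequence here. A match of letters is a description and does not show binding.

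The scaffold genes Amotl1 and Amotl2 encode angiomotin-like proteins, which bind YAP and TAZ at junctions and actin and hold them out of the nucleus, and Amotl2 is itself a target of YAP. Both lie on chromosome 9, Amotl1 at chr9:14541966-14645056 (minus strand) and Amotl2 at chr9:102716672-102733418 (plus strand). Amotl1 stood at 192 and 156 CPM in KO, against 105 and 97.3 CPM in WT. The groups did not overlap, and Amotl1 rose by 0.78 ± 0.12 on the log2 scale (edgeR, adjusted p = 0.00606). Amotl2 stood at 204 and 172 CPM in KO, against 135 and 145 CPM in WT. Its rise of 0.42 ± 0.11 passed the edgeR test narrowly (adjusted p = 0.0453). Amotl2 was no longer called when any library but KO replicate 2 was left out (adjusted p = 0.0760 without KO replicate 1, 0.238 without WT replicate 1 and 0.138 without WT replicate 2), while that of Amotl1 was kept in each case. There were 0.943 and 0.902 Amotl1 counts per Amotl2 count in KO, and 0.774 and 0.672 in WT, with no overlap of the groups, and the difference between the effects on these scaffolds was not tested. The related X-linked gene Amot, the founding angiomotin, stood at 27.9 and 23.2 CPM in KO and 15.6 and 11.1 CPM in WT and rose by 0.95 ± 0.18 (edgeR, adjusted p = 0.0158). All 3 angiomotin genes were therefore called higher.

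Of the coactivator genes, Wwtr1 (chr3:57455649-57575910, minus strand) passed the test and Yap1 (chr9:7931999-8004596, minus strand) did not, and the difference between these effects was not tested. Wwtr1 stood at 165 and 160 CPM in KO, against 121 and 117 CPM in WT. The groups did not overlap, and the gap between genotypes was far wider than that between replicates. Wwtr1 rose by 0.45 ± 0.09 on the log2 scale, a 1.37-fold difference (edgeR, adjusted p = 0.0168). It no longer passed when WT replicate 1 (adjusted p = 0.0719) or WT replicate 2 (0.189) was left out, at nearly the same fold change (0.47 and 0.43). Yap1 stood at 494 and 475 CPM in KO, against 436 and 432 CPM in WT. Both KO libraries were above both WT libraries, but the difference of 0.16 ± 0.10 did not pass (edgeR, adjusted p = 0.409). There were 0.335 and 0.338 Wwtr1 counts per Yap1 count in KO and 0.278 and 0.270 in WT, so the share of TAZ transcription relative to that of YAP was higher in both KO libraries.

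The TEAD genes, Tead1 (chr7:112679318-112906807, plus strand) and Tead4 (chr6:128224288-128300823, minus strand), did not pass the test. Tead1 was the member with the most counts, at 1263 and 1415 CPM in KO and 1301 and 1357 CPM in WT. Its KO values enclosed its WT values, and the log2 fold change was 0.01 ± 0.13 (edgeR, adjusted p = 0.975). Tead4, the TEAD gene needed for trophectoderm in the mouse embryo, stood at 38.9 and 76.2 CPM in KO and 55.5 and 78.1 CPM in WT. The groups overlapped, and the fold change of -0.21 ± 0.27 did not pass (edgeR, adjusted p = 0.707). Tead4 was the member whose KO libraries were furthest apart, by 0.97 on the log2 scale, and its WT libraries differed by 0.49. Without KO replicate 2 it was called lower (-0.78, edgeR, adjusted p = 8.89e-06), and without KO replicate 1 (0.18) or WT replicate 2 (0.06) its sign turned.

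KO replicate 1 and WT replicate 1 had fewer mouse counts (13.1 and 13.5 M) than KO replicate 2 and WT replicate 2 (18.4 and 19.4 M), and the labels do not say whether these pairs mark a batch. Between the libraries of lower depth the KO over WT log2 ratio was 1.67 for Ankrd1, 1.02 for Ctgf, 1.06 for Cyr61, 0.88 for Amotl1, 0.59 for Amotl2 and 0.45 for Wwtr1. Between the libraries of higher depth it was 2.88, 1.11, 1.04, 0.68, 0.25 and 0.46 for the same genes in the same order. All 6 genes were higher in KO within either pair, which must follow where both KO libraries lie above both WT libraries and is no further check. Ctgf, Cyr61 and Wwtr1 were higher by nearly equal amounts in both pairs. For Yap1 the ratios were 0.18 and 0.14, for Tead1 -0.04 and 0.06, and for Tead4 -0.51 and -0.03. With a term for these pairs, edgeR also called Tead4 lower (-0.24 ± 0.08, adjusted p = 0.0158), in a fit with 1 residual degree of freedom.

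Spike-in scaling places the same genes on a scale of RNA per S. pombe RNA. Ctgf had 376 and 553 counts per 1e6 S. pombe counts in KO, against 219 and 301 in WT. Cyr61 had 233 and 325 in KO, against 132 and 186 in WT. For both genes the KO libraries were above the WT libraries on this scale too, whereas Amotl1 overlapped, with 534 and 733 in KO and 345 and 537 in WT. Mouse counts per S. pombe count differed by depth pair as well as by genotype, at 2.71 and 4.86 in KO and 3.25 and 5.60 in WT. Within the pair of lower depth and within that of higher depth Amotl1 was higher in KO, as were Wwtr1, with 459 and 755 in KO and 400 and 644 in WT, and Amotl2, with 566 and 813 in KO and 446 and 800 in WT. The median of all genes moved to -0.23 under this scaling, and the biological coefficient of variation was 0.363, against 0.0952 with TMM. None of the 9 genes was called by edgeR with spike-in scaling, where 0.101% of all tested genes were called. Before adjustment 1 of the 9 had an edgeR p under 0.05 there, as had 634 of all 16789 genes tested. The log2 fold changes were 2.0 ± 0.65 for Ankrd1 (edgeR, adjusted p = 0.310), 0.84 ± 0.74 for Ctgf and 0.81 ± 0.71 for Cyr61. Those of Amotl1 (0.52), Wwtr1 (0.22) and Amotl2 (0.15) were also positive, and that of Yap1 turned to -0.08 and that of Tead1 to -0.21, both above the shifted median. The rises given above are therefore relative to the bulk of nascent transcripts.

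**Figure D3:**
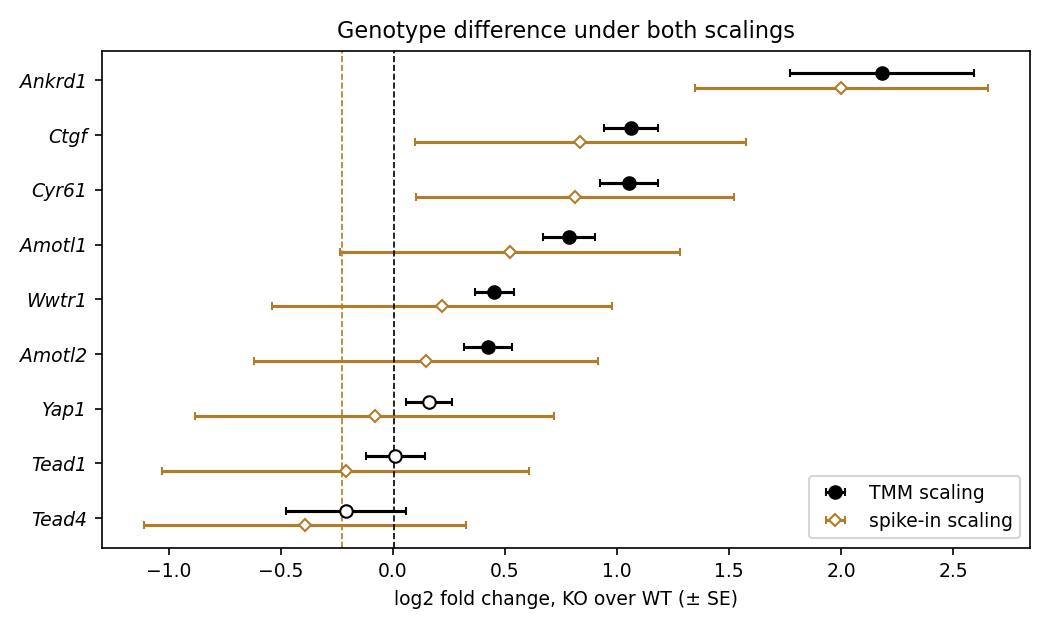
Log2 fold changes of KO over WT with standard errors for 9 genes, with TMM scaling (black, filled where the adjusted p was under 0.05) and with S. pombe spike-in scaling (brown diamonds), and dashed lines at the median of all genes under each. Under both scalings Ankrd1 (2.18 and 2.0), Ctgf and Cyr61 lie furthest to the right, and the spike-in errors are wider.

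Per kb of gene span, the order of levels in KO was Ctgf (39.0 CPM per kb), Cyr61 (25.4), Amotl2 (11.2), Yap1 (6.67), Tead1 (5.88), Amotl1 (1.69), Wwtr1 (1.35), Tead4 (0.753) and Ankrd1 (0.417). In WT the levels per kb were 18.7 for Ctgf, 12.3 for Cyr61, 8.36 for Amotl2, 5.98 for Yap1, 5.84 for Tead1, 0.990 for Wwtr1, 0.980 for Amotl1, 0.873 for Tead4 and 0.0963 for Ankrd1. The WT libraries of Yap1 and Tead1 overlapped on this scale, as did those of Wwtr1, Amotl1 and Tead4, so their order in WT is not resolved. In KO, Amotl1 lay above Wwtr1 in both libraries. The short matricellular genes thus held the highest density of nascent reads and Ankrd1 the lowest. The sources used here do not say whether introns were counted, and per kb of exon the order in KO was led by Tead1 (98.7 CPM per kb), Yap1 (52.3) and Ctgf (44.2).

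Lats2, which encodes a kinase that phosphorylates YAP and TAZ and is also one of their targets, had too few counts to be tested. It had 0 counts in both KO libraries and 1 count in each WT library, and it did not pass the filter. Lats2 lies on chromosome 14 from 57689662 to 57758388 on the minus strand of mm10. Gm49361, a predicted protein-coding gene annotated from 57642077 to 57746103 on the same strand, covers 82.1% of it and shares several of its exons. Gm49361 had 49 and 85 counts in KO and 50 and 45 counts in WT, with a log2 fold change of 0.52 ± 0.29 (edgeR, adjusted p = 0.331). Lats2 had 4016 of its 6971 exonic bases outside the exons of other genes on its strand, but only 209 outside the whole span of such genes. Of 566 protein-coding genes with at least 80% of the span but under 50% of the exonic bases shared with genes of the same strand, 89.6% had a mean of at most 1 count per library. This share was 82.6% for all 878 genes with at least 80% of the span under genes of the same strand. It was 39.9% for 863 genes with at least 80% of the span under genes of the opposite strand only, and 32.1% for 11983 genes with no overlap. A count near 0 was thus more frequent among genes with a span shared on the same strand, a class that holds Lats2 and Sox2. The classes were not matched for expression, and whether the overlap lowered the count of Lats2 was not tested. Its counts are therefore not read as a level of Lats2 RNA. None of the other members had more than 0.952% of its span shared on its own strand.

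**Figure D4:**
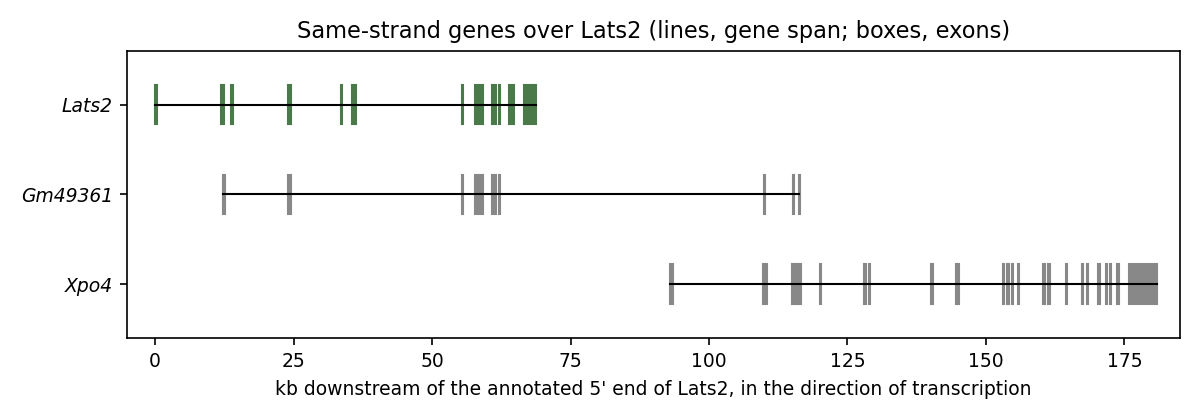
Gene spans (lines) and exons (boxes) of Lats2, Gm49361 and Xpo4, all on the same strand, against the distance in kb from the annotated 5′ end of Lats2 in the direction of transcription. Gm49361 runs over 82.1% of Lats2 and onward into Xpo4, and just the first 12.3 kb of Lats2 belong to it alone.

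The other kinase, upstream, TEAD and VGLL genes were called no more often than tested genes at large, of which 8.07% were called. Lists this short hold few calls at that share. Before adjustment, 3842 of all 16789 tested genes had an edgeR p under 0.05. Of 6 kinase and adaptor genes 0 were called by edgeR, by DESeq2 or by limma voom. Their median was 0.08, and 1 gene had an edgeR p under 0.05 before adjustment. The most abundant were the kinase genes Stk4, at 221 and 214 CPM in KO and 209 and 208 CPM in WT, and Stk3, at 132 and 178 CPM in KO and 163 and 190 CPM in WT. Of 14 upstream regulator genes, Amot alone was called, and the median was 0.10. Of 6 further TEAD and VGLL genes, 4 were tested and 0 were called by edgeR, by DESeq2 or by limma voom, while 2 had an edgeR p under 0.05 before adjustment. The cofactor genes Vgll3 and Vgll4, whose products compete with or replace YAP on TEAD factors, were both a little higher in KO libraries. Vgll3 stood at 52.4 and 50.0 CPM in KO and 43.3 and 39.8 CPM in WT (log2 fold change 0.30, edgeR, adjusted p = 0.107), and Vgll4 at 61.0 and 62.1 CPM in KO and 49.2 and 52.3 CPM in WT (0.28, adjusted p = 0.109).

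Other targets of YAP and TAZ included calls in both directions. A list of 22 such targets known from human tumours contains 5 of the 10 genes and 17 others, of which 15 were tested. Of these 15, 3 were higher, 1 was lower and 11 did not pass, beside 4.05% higher and 4.02% lower over all tested genes. The log2 fold change was positive for 12 of the 15, and their median was 0.08. F3, which encodes tissue factor, stood at 32.0 and 43.8 CPM in KO, against 14.7 and 15.2 CPM in WT, and rose by 1.35 ± 0.16 (edgeR, adjusted p = 0.00261). Axl, a receptor tyrosine kinase gene, rose by 1.06 ± 0.24 at 4.60 and 4.66 CPM in KO and 2.05 and 2.35 CPM in WT (edgeR, adjusted p = 0.0315). Ptpn14, whose product is a phosphatase that binds YAP, stood at 503 and 394 CPM in KO and 291 and 252 CPM in WT and rose by 0.72 ± 0.14 (edgeR, adjusted p = 0.0161). Gadd45a, a stress-response gene, fell by 0.57 ± 0.14, at 29.5 and 39.2 CPM in KO and 52.0 and 50.7 CPM in WT (edgeR, adjusted p = 0.0353). Axl lost its call without WT replicate 1 (adjusted p = 0.100), without WT replicate 2 (0.0812) and in DESeq2 (0.0855), and Ptpn14 without WT replicate 2 (0.103).

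**Figure D5:**
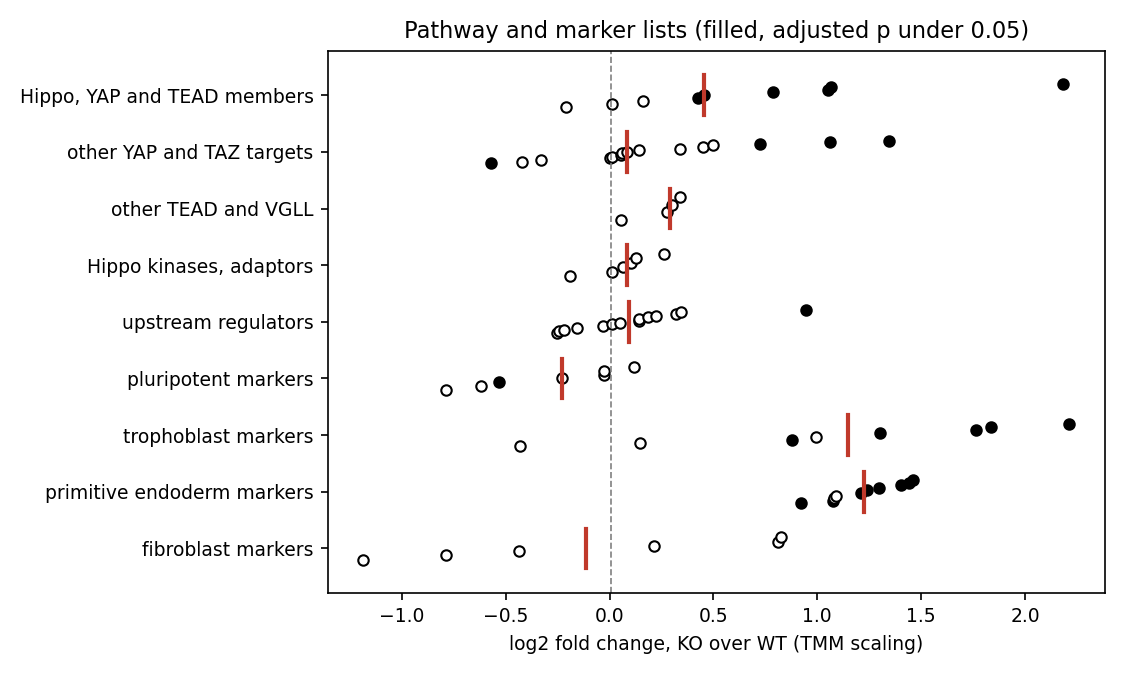
Log2 fold change of KO over WT (TMM scaling) for each tested gene of the pathway and marker lists, filled where the adjusted p was under 0.05, with a red bar at each list's median and a dashed line at the median of all genes. The 9 members (median 0.45) lie mostly to the right of the dashed line, the other YAP and TAZ targets (median 0.08) on both sides, the 10 primitive endoderm markers to its right, and the trophoblast markers on both sides, 7 of 8 to its right.

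Markers of trophoblast and primitive endoderm were among the genes called higher in KO, and fibroblast markers were not. Of 10 trophoblast markers 8 were tested, and 5 were higher, none was lower and 3 did not pass (edgeR), while DESeq2 called 2. The 10 had a summed level of 102 and 120 CPM in KO and 77.8 and 69.5 CPM in WT. Krt18 stood at 32.49 and 36.02 CPM in KO and 10.99 and 9.31 CPM in WT. Krt8 stood at 22.5 and 27.5 CPM in KO and 8.21 and 6.01 CPM in WT. These keratin genes carried most of the gap in the sum, which therefore does not show a rise of the other markers. Of those other markers, Gata3 (log2 fold change 0.88) and Cdx2 were called higher. Cdx2, a trophectoderm regulator and itself known as a target of TEAD4, stood at 1.48 and 0.898 CPM in KO and 0.293 and 0.209 CPM in WT (2.21 ± 0.52, edgeR, adjusted p = 0.0357). It no longer passed when WT replicate 2 (adjusted p = 0.225) or KO replicate 1 (0.136) was left out. Tfap2c went the other way without passing the test, at 28.3 and 39.9 CPM in KO and 48.0 and 44.6 CPM in WT (-0.43, edgeR, adjusted p = 0.128), and Eomes overlapped between the groups (0.15, adjusted p = 0.793). The keratin genes rose, Krt8 by 1.83, Krt18 by 1.76 and Krt7 by 1.30, while Krt7 lost its call in DESeq2 (adjusted p = 0.0885), without WT replicate 1 (0.0508) and without WT replicate 2 (0.131). Of 10 primitive endoderm markers 8 were higher and none lower in edgeR, with a summed level of 976 and 1374 CPM in KO and 465 and 563 CPM in WT. Sox17 (1.46), Col4a1 (1.44), Col4a2 (1.40) and Pdgfra (1.30) had the largest called changes. Among 8 pluripotency markers 7 were tested, and 1 of these had a positive log2 fold change. Their median was -0.23, within a range of -0.79 to 0.12. For 4 of the 7, both KO libraries lay below both WT libraries, as they did for 26.0% of all tested genes. Nanog fell by 0.53 and was the only one called by edgeR, while DESeq2 called 2. The summed level of the 8 was 1207 and 1510 CPM in KO and 1847 and 1894 CPM in WT. The fibroblast markers summed to 11.9 and 9.31 CPM in KO and 11.4 and 10.1 CPM in WT. Of 6 tested genes 0 were called by edgeR, by DESeq2 or by limma voom. Before adjustment 3 of the 6 had an edgeR p under 0.05, as had 3842 of all 16789 genes tested. The fibroblast marker Lum had 0 counts in both KO libraries and Postn in 3 of the 4 libraries. The most abundant were Twist2 and Fbln2. Twist2 stood at 3.56 and 2.52 CPM in KO and 1.98 and 1.46 CPM in WT, and Fbln2 stood at 3.12 and 1.85 CPM in KO and 3.0 and 3.56 CPM in WT. The part that cells of these other types have in the rise of the YAP targets was not tested. In bulk libraries, more cells of a type cannot be told apart from more RNA per cell.

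Primitive endoderm and pluripotency markers differed more from WT in one KO library than in the other, and not in the same library. KO replicate 1 had the lower sum of pluripotency markers (1207 CPM) and KO replicate 2 the higher sum of primitive endoderm markers (1374 CPM). Ctgf, Cyr61, Amotl1, Amotl2 and Ankrd1 were all higher in KO replicate 1 than in KO replicate 2. Among WT libraries Ankrd1, Ctgf, Cyr61 and Amotl1 were higher in replicate 1 as well, which is also the WT library of lower depth.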

How the data were processed

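TT-seq libraries of ES cells, 2 of Supt3 KO and 2 of Supt3 WT, were grouped by the genotype label and numbered in accession order, which pairs nothing. The deposited files hold raw counts per mouse gene and per S. pombe gene. The authors' deposited comparison table repeats the mouse counts (100% of values equal) and adds a normalized signal per library, a log2 fold change with a beta prior per the file name, and p-values. Alignment with STAR 2.5.3 to mm10 and HTSeq 0.6.1p1 are named in the submitters' processing notes. The sources used here give no strand setting, counted feature or annotation release, which leaves overlapping and antisense genes uncertain.

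Genes were kept by filterByExpr (minimum count 10) and tested with edgeR 4.0.16 (R 4.3.3) quasi-likelihood tests over all 16789 genes, with TMM factors or with S. pombe totals times their TMM factor. Each standard error is the fold change (log2) over the square root of F. The fit was tested on data simulated with a common dispersion and no depth pairs. Of simulated log2 changes of 0.5, 34.3% were called, and of changes of 1.0, 89.6%. A gene that was not called may therefore have changed by a small amount. Alternatives were DESeq2 1.42.0, limma 3.58.1 voom, DESeq2 size factors, other filters, a term for depth pairs and each library left out. Exons came from GENCODE M21 and promoters from RefSeq, with Cyr61 matched as Ccn1. Counting error was not separated from the spread between libraries, and it weighs most on Ankrd1 and other genes of few counts.

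Members and lists were chosen with earlier results of these data known. Named were all 10 members, up to 4 called genes of each other list by size, or the 2 most abundant where none was called, and the 5 genes most like Ankrd1. The listed targets come from human tumours and were matched by symbol.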

Additional observations from a re-analysis of the deposited data

How the results depend on the processing

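With every alternative except spike-in scaling, Ankrd1, Ctgf, Cyr61 and Amotl1 were called higher. The number of members called higher was 0 with spike-in scaling and 4 to 6 when 1 library was left out, and the number called lower was 1 with a term for the pairs of lower and higher depth and 0 to 1 when 1 library was left out, in both cases Tead4. The median of the 9 members was 0.22 with spike-in scaling and 0.43 to 0.54 when 1 library was left out. Over all genes, 680 were called higher and 675 lower. These counts were 1 and 16 with spike-in scaling, 1260 and 1200 with no low-count filter and 2214 and 2093 with the pair term, and ranged over 379 to 1481 and 439 to 1342 when 1 library was left out, lowest without WT replicate 2 and highest without KO replicate 2.

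The sign turned for Yap1 (-0.082), Tead1 (-0.21) and Stk4 (-0.18) with spike-in scaling, and for Tead1 with a mean CPM of at least 2 (-0.00095). When 1 library was left out, values ranged from -0.073 to 0.090 for Tead1, from -0.78 to 0.18 for Tead4 and from -0.42 to 0.0051 for Stk3. The cause was not tested. Of 99 values of members under alternatives, 79 kept both sign and side of the threshold, and of 285 values of other named genes 248 did. The labels give the libraries no replicate numbers, and the depth pairs, which come from the counts, are the single pairing tried. With 2 libraries per genotype, fits without a library assume that the lone library varies like the other pair, and Ankrd1 and Lats2 are limited by their low counts.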

Other observations

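The genes whose pattern over the 4 libraries was most like that of Ankrd1 were Zscan4-ps1, Stmn4, Plagl1, Zscan4b and Anxa1. Likeness is the root mean square difference of mean-centred log2 CPM, which was 0.27, 0.31, 0.34, 0.39 and 0.40 in that order among 13587 genes with a mean of at least 2 CPM. Anxa1, which encodes the phospholipid-binding protein annexin A1 and lies on chromosome 19 like Ankrd1, stood at 22.4 and 22.4 CPM in KO and 8.21 and 5.49 CPM in WT (log2 fold change 1.73 ± 0.19, edgeR, adjusted p = 0.00190). Stmn4 stood at 9.57 and 6.90 CPM in KO and 2.27 and 1.52 CPM in WT, and Plagl1, an imprinted zinc finger gene, at 28.3 and 22.4 CPM in KO and 5.50 and 3.92 CPM in WT. Zscan4-ps1 and Zscan4b belong to a family of near-identical copies, so their levels of 9.94 and 5.39 CPM in KO against 2.78 and 1.05 CPM in WT, and of 4.67 and 3.09 CPM in KO against 1.76 and 0.889 CPM in WT, are uncertain. With 4 libraries such likeness is a description of these samples.

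The 6 members that rose were picked by their calls and would lie further from 0 than most genes. The genes around them are therefore given as a description only. The 20 tested genes nearest to Ankrd1 on chromosome 19 had a median log2 fold change of 0.00 with 1 called higher. The 20 around Ctgf on chromosome 10 had 0.18 with 5 higher, and the 20 around Cyr61 on chromosome 3 had 0.26 with 4 higher. None of these 60 was called lower. Over all tested genes, 4.05% were called higher, so calls were more frequent around Ctgf and Cyr61. They were also more frequent around Tead1, which did not pass the test, with 4 higher, 1 lower and a median of 0.12. Around Yap1 0 were called, and around Tead4 1 was higher and 1 lower. Around Amotl1 the median was 0.15 with 2 called lower, around Amotl2 it was 0.07 with 2 called higher and 1 lower, and around Wwtr1 it was 0.03 with 1 called higher. The 20 genes nearest to Lats2 on chromosome 14 had a median of 0.04 and 0 calls in edgeR.

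The authors' deposited table has size factors that differ from TMM and, per the file name, fold changes with a beta prior. Its KO over WT log2 value was 1.14 for Ankrd1, 0.63 for Ctgf, 0.61 for Cyr61 and 0.39 for Amotl1. It was 0.16 for Wwtr1 and 0.11 for Amotl2, and negative for Yap1 (-0.06), Lats2 (-0.12), Tead1 (-0.15) and Tead4 (-0.17). For every tested member this sign was that of the spike-in fit, in which none was called. Yap1 and Tead1 were negative in the spike-in fit (-0.08 and -0.21) and positive with TMM (0.16 and 0.01). How the authors scaled the libraries was not tested. The authors' adjusted p was 0.999 for each of the 10 genes. The unadjusted p for Ankrd1 there was 0.00591.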
